A study of Homo sapiens with 2 samples.

Results

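The mitochondrial carrier family (SLC25) was described in HEK293T cells with a stable knockdown of FKBP5. The members are the protein-coding genes whose symbol is SLC25A and a number, 48 genes, together with UCP1, UCP2, UCP3, MTCH1 and MTCH2. That made 53 members of the 60683 genes in the count table, 19910 of which are protein-coding in GENCODE release 29 on GRCh38. HEK293T is a human embryonic kidney line that carries the SV40 large T antigen. FKBP5 encodes a co-chaperone of HSP90 that is best known for its part in glucocorticoid receptor signalling. Stable cells were made with shRNAs, per the series' design text; the sources used here do not give how many shRNAs or clones the samples stand for. Total RNA was read from 2 samples, both of the FKBP5 knockdown and named here sample 2 and sample 1. Cells with a scrambled control, which the extraction protocol mentions, were not analysed here, so no value below measures an effect of the knockdown. The labels do not state whether each sample was a culture of its own, and differences between them may be technical.

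Sample 2 held 21284648 counts and sample 1 held 9997706. FKBP5 itself had 77 counts in sample 2 and 41 in sample 1, or 3.52 CPM, counts scaled to a common library size (95% exact Poisson interval 2.78 to 4.40), and 3.95 CPM (2.84 to 5.36), and without a control these values do not show how far it was lowered. The cell line's markers were present, with 6 of 6 at or above 1 CPM, led by VIM at 126 CPM in sample 2 against 130 CPM in sample 1. Markers of blood cells (0 of 4), hepatocytes (0 of 5) and male germ cells (0 of 4) did not reach 1 CPM, while 1 of 5 adipocyte, 2 of 4 skeletal muscle, 1 of 4 keratin-rich epithelial and 3 of 4 fibroblast markers did. Intervals cover counting error only.

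SLC25 carriers are nuclear-encoded proteins made of repeated transmembrane modules, and most sit in the inner mitochondrial membrane, where they exchange nucleotides, phosphate, carboxylates, amino acids, cofactors and metals between the cytosol and the matrix. They are made in the cytosol, pass the outer membrane through the TOM complex and are inserted by the TIM22 complex. Many substrates are served by sets of close paralogs that differ in the tissues that use them, such as the ADP/ATP carriers, of which one is best known from heart and muscle and another from testis.

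Most of the family was detected. A mean of 1 CPM or more over the samples was reached by 45 of 53 members (84.9%), against 13244 of 19910 protein-coding genes (66.5%). Of the members, 10 had at least 100 CPM, 28 had between 10 and 100 CPM, 7 had between 1 and 10 CPM and 8 were below 1 CPM. The 8 low members were SLC25A31, SLC25A18, SLC25A2, SLC25A32, SLC25A52, UCP1, SLC25A47 and SLC25A34, and 44 members were at or above 1 CPM in both samples. The family took 72901 counts in sample 2, 0.343% of all counts (Wilson interval 0.340 to 0.345), and 35165 counts in sample 1, 0.352% (0.348 to 0.355). These reads were concentrated in few genes: SLC25A3, SLC25A5 and SLC25A39 held 29.04% of them in sample 2 (28.7 to 29.4) and 30.2% in sample 1 (29.7 to 30.6), and the 10 members with most reads held 68.0% and 68.8%.

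**Figure D1:**
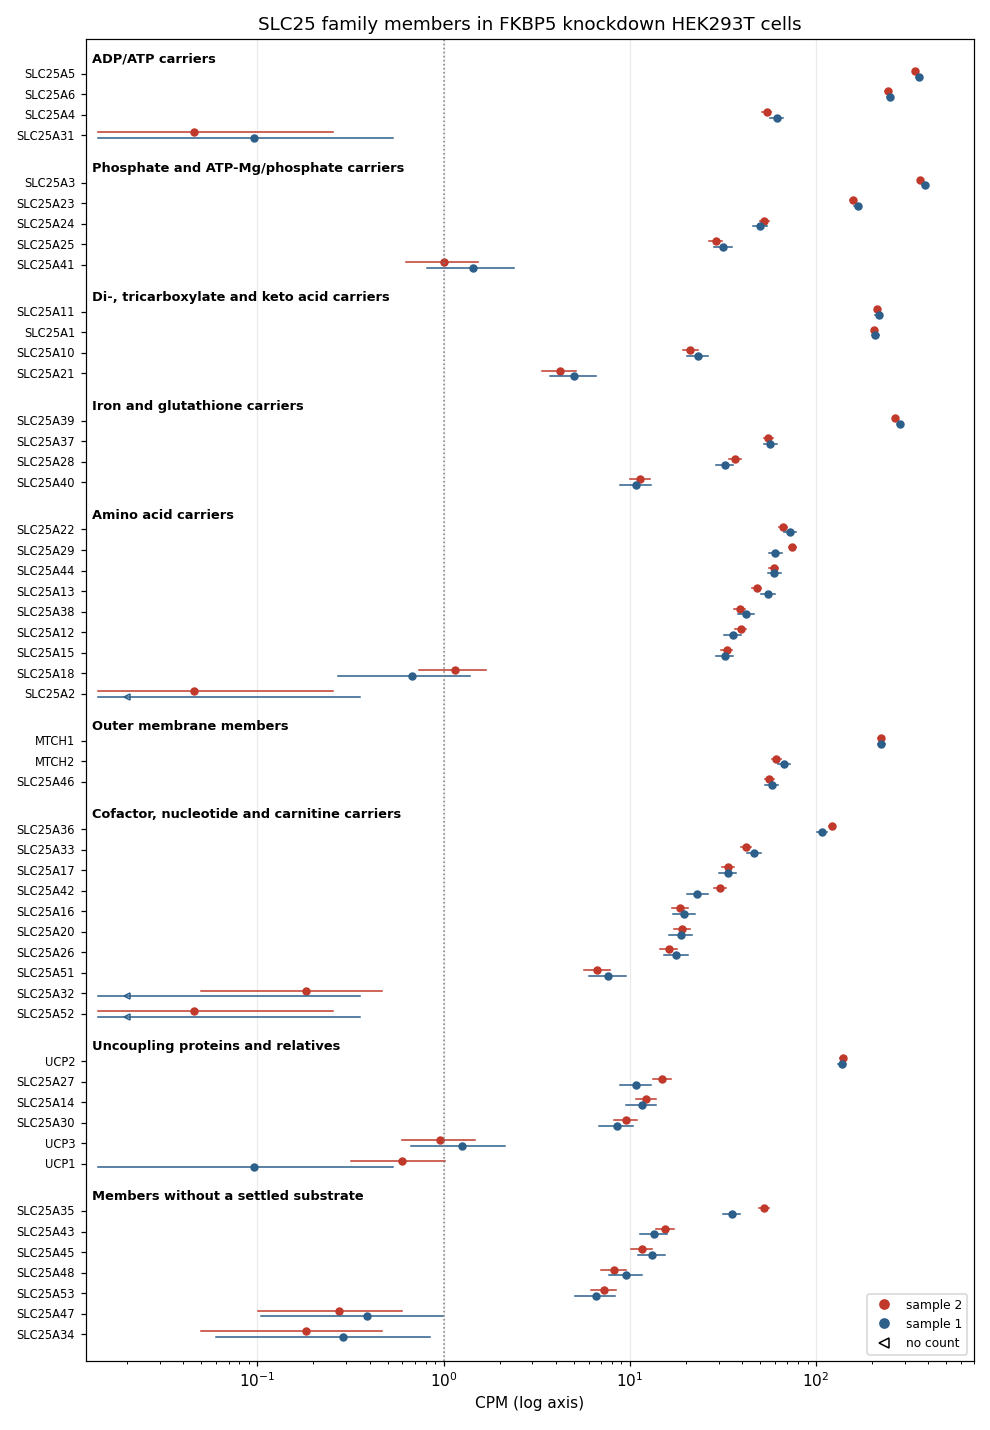
CPM of 52 members on a log axis, by substrate group, with red points for sample 2, blue points for sample 1 and 95% exact Poisson intervals as lines; an open triangle marks a sample with no count and the dotted line is 1 CPM. In 5 of the 9 groups 1 or more members sit above 100 CPM and others below 10 CPM, and the 8 members below 1 CPM are spread over 5 of the 9 groups.

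By summed CPM, the ADP/ATP carriers were the largest of 9 substrate groups, with 635 CPM in sample 2 against 666 CPM in sample 1, which is 19.0% and 19.7% of the family. The phosphate and ATP-Mg/phosphate carriers followed with 603 and 633 CPM, and then the di-, tricarboxylate and keto acid carriers with 443 and 453 CPM. The iron and glutathione carriers had 370 and 383 CPM, the amino acid carriers 361 and 359 CPM, the outer membrane members 339 and 349 CPM, and the cofactor, nucleotide and carnitine carriers 312 and 298 CPM. The uncoupling proteins and their relatives came to 177 and 170 CPM, and the members without a settled substrate to 95.5 and 78.6 CPM. Because a longer transcript gives more reads, levels of different genes were compared per kilobase of all exons joined. On that scale the ADP/ATP carriers were 33.2% of the family in sample 2 and 34.0% in sample 1, and the phosphate group was below the carboxylate group, at 8.33% and 8.58% against 17.8% and 17.7%. That order turned with the length assumed. Per kilobase of the principal transcript of each gene, an alternative chosen after seeing the data, the phosphate group had 17.2% and 17.7% of the family and the carboxylate group 15.1% in both samples, while the ADP/ATP carriers were still the largest group, with 23.9% and 24.5%.

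**Figure D2:**
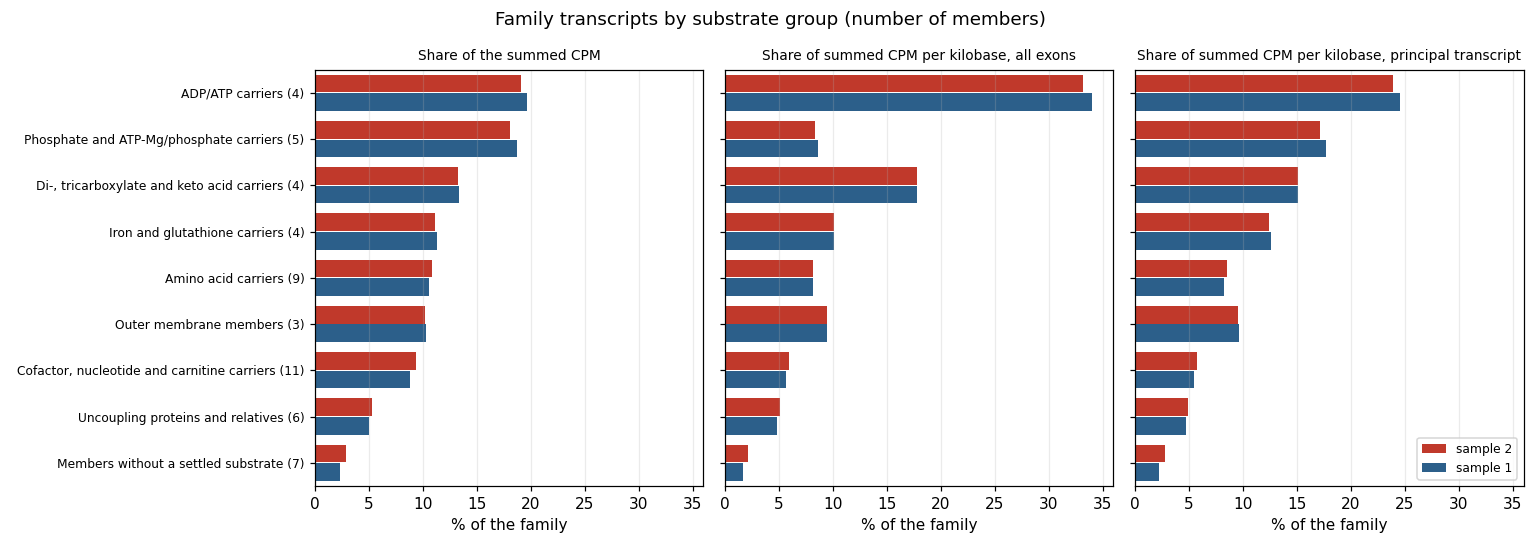
Share of the family's summed CPM (left), of its summed CPM per kilobase of all exons (middle) and of its summed CPM per kilobase of principal transcript (right) for each substrate group, with red bars for sample 2 and blue bars for sample 1. The ADP/ATP carriers are the largest group in each panel, and the phosphate group holds 8.33% and 8.58% in the middle but 17.2% and 17.7% on the right.

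The ADP/ATP carriers exchange cytosolic ADP for ATP made in the matrix, and SLC25A5 (ANT2) was the highest member of the whole family per length. SLC25A5 (ENSG00000005022, chrX:119468400-119471319, GRCh38, + strand) had 339 CPM in sample 2 (331 to 347) and 356 CPM in sample 1 (345 to 368). SLC25A6 (ANT3, ENSG00000169100, chrX:1386152-1392724, - strand, in the pseudoautosomal region) had 242 CPM (236 to 249) and 249 CPM (239 to 259). SLC25A4 (ANT1), the paralog known from heart and skeletal muscle, had 54.3 and 61.3 CPM. Per kilobase, SLC25A5 was 2.02 times SLC25A6 in sample 2 and 2.06 times in sample 1, and 20.1 and 18.8 times SLC25A4, so the order of these 3 paralogs was the same in both samples. SLC25A31 (ANT4), known from the male germ line, had 1 count in each sample, under the 3 counts used as the detection floor (0.137 CPM in sample 2, 0.289 CPM in sample 1). The male germ cell markers were low as well, with sums of 0.275 CPM in sample 2 against 0.386 CPM in sample 1 and no count for PRM1. In bulk RNA, fewer cells of a type and less RNA per cell cannot be told apart.

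The paralogs are similar enough that the assignment of reads matters, so the same 60 bases of each coding sequence are shown, from coding positions 682 to 741 (718 to 777 in SLC25A31), read from the GENCODE release 29 principal transcripts. The stretch holds the codons of the signature motif of ADP/ATP carriers, and capitals mark bases that differ from SLC25A5.
SLC25A5: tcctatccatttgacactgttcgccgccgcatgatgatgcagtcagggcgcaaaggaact
SLC25A6: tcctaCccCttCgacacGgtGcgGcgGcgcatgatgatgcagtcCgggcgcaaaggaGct
SLC25A4: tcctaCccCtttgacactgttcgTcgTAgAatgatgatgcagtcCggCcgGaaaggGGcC
SLC25A31: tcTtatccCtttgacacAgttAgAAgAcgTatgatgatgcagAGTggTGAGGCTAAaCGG
SLC25A6 differed from SLC25A5 at 9 of the 60 bases, SLC25A4 at 12 and SLC25A31 at 23. Over the whole coding sequence the identity with SLC25A5 was 78.7% for SLC25A6, 77.2% for SLC25A4 and 62.6% for SLC25A31, and the longest run of identical bases was 29, 14 and 21. A stretch of 50 bases from 1 of these genes is therefore rarely found in another: 96.3% of the 50-base stretches of SLC25A5 and 99.1% of those of SLC25A6 occurred in no other gene. The Y chromosome copy of SLC25A6 in the pseudoautosomal region was left out of this count. The sources used here do not give how reads matching both copies were treated. The 9 annotated pseudogenes of SLC25A5 together had 38 counts in sample 2 and 23 in sample 1.

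Phosphate enters the matrix through SLC25A3, which had the highest read count of the family. SLC25A3 (ENSG00000075415, chr12:98593591-98606379, + strand) had 363 CPM in sample 2 (355 to 371) and 383 CPM in sample 1 (371 to 395). Its place per length depended on the transcript assumed. Over all exons joined (8896 bases) it had 40.8 and 43.0 CPM per kilobase and ranked 8 in the family, while over its principal transcript it had 217 and 228 CPM per kilobase and ranked 2. The ATP-Mg/phosphate carriers, most of which are regulated by calcium, set the matrix pool of adenine nucleotides. SLC25A23 (ENSG00000125648, chr19:6436079-6465203, - strand) led them with 157 CPM in sample 2 (152 to 163) and 167 CPM in sample 1 (159 to 175). SLC25A24 had 52.8 and 50.02 CPM, SLC25A25 had 28.9 and 31.8 CPM, and SLC25A41, which lacks the calcium-binding domain, had 1.01 and 1.45 CPM from 22 and 15 counts. Per kilobase, SLC25A23 was 4.13 and 4.62 times SLC25A24 and 5.53 and 5.33 times SLC25A25.

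Among the carboxylate carriers, the citrate carrier and the oxoglutarate/malate carrier were well above SLC25A10 and SLC25A21. SLC25A11, the oxoglutarate/malate exchanger of the malate-aspartate shuttle (ENSG00000108528, chr17:4937130-4940251, - strand), had 212 CPM in sample 2 (206 to 219) and 217 CPM in sample 1 (208 to 226). SLC25A1, which exports citrate for fatty acid and sterol synthesis (ENSG00000100075, chr22:19175575-19178830, - strand), had 205 CPM (199 to 211) and 208 CPM (199 to 217). The ratio of SLC25A1 to SLC25A11 per kilobase was 1.23 in sample 2 and 1.22 in sample 1. Over the principal transcripts this ratio was 1.11 and 1.10. SLC25A10, the dicarboxylate carrier (ENSG00000183048, chr17:81712236-81721016, + strand), had 21.1 CPM (19.3 to 23.2) and 23.2 CPM (20.4 to 26.4). This value is uncertain, because 46.6% of its exon bases lie in exons of AC139530.2 on the same strand and only 58.8% of its 50-base stretches are its own; AC139530.2 had no count in either sample. SLC25A21, the oxoadipate carrier, had 4.21 and 5.01 CPM. The enzymes that work with these carriers were all detected: 12 of 12 enzymes of the malate-aspartate shuttle and of citrate export were at or above 1 CPM, led by ACLY, which cleaves exported citrate, at 546 CPM in sample 2 against 583 CPM in sample 1, and by MDH2, the matrix malate dehydrogenase, at 342 and 329 CPM.

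Of the 9 amino acid carriers, 7 were between 30 and 80 CPM, and the second paralog of the glutamate and of the ornithine carriers was nearly absent. SLC25A22, a glutamate carrier (ENSG00000177542, chr11:790475-798333, - strand), had 66.3 CPM in sample 2 (63.0 to 69.9) and 72.6 CPM in sample 1 (67.5 to 77.9). Its paralog SLC25A18 had 25 and 7 counts, so that SLC25A22 was 59.2 and 110 times SLC25A18 per kilobase. Over the principal transcripts SLC25A22 was 46.5 and 86.3 times SLC25A18. SLC25A29, a carrier of basic amino acids (ENSG00000197119, chr14:100291111-100306547, - strand), had 74.7 CPM (71.1 to 78.4) and 60.4 CPM (55.8 to 65.4), and its 2 intervals do not overlap. SLC25A44, which carries branched-chain amino acids, had 59.1 and 59.7 CPM, and SLC25A38, the glycine carrier used in haem synthesis, had 39.0 and 42.1 CPM. The aspartate/glutamate carriers of the malate-aspartate shuttle were both present, SLC25A13 (citrin) with 47.9 and 55.2 CPM and SLC25A12 (aralar) with 39.4 and 35.8 CPM. Per kilobase, SLC25A13 was 1.69 times SLC25A12 in sample 2 and 2.15 times in sample 1, and over the principal transcripts 1.15 and 1.47 times. SLC25A15, the ornithine carrier of the urea cycle, had 33.0 and 32.3 CPM, while its paralog SLC25A2 had 1 count in sample 2 and none in sample 1.

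The cofactor, nucleotide and carnitine carriers were led by the pyrimidine nucleotide carriers. SLC25A36 (ENSG00000114120, chr3:140941830-140980961, + strand) had 121 CPM in sample 2 (117 to 126) and 107 CPM in sample 1 (101 to 114). SLC25A33 (ENSG00000171612, chr1:9539482-9585179, + strand) had 42.1 CPM (39.4 to 44.9) and 46.4 CPM (42.3 to 50.7), with 79.3% of its 50-base stretches unique to it. Which of these paralogs was higher per length was not settled: the ratio of SLC25A36 to SLC25A33 was 1.08 in sample 2 and 0.866 in sample 1 over all exons, and 2.40 and 1.92 over the principal transcripts. SLC25A42, a mitochondrial coenzyme A carrier (ENSG00000181035, chr19:19063999-19112888, + strand), had 30.6 CPM (28.3 to 33.0) and 23.0 CPM (20.2 to 26.1). The peroxisomal member SLC25A17 had 33.6 CPM in both samples. The carnitine/acylcarnitine carrier SLC25A20 had 19.0 and 18.8 CPM, SLC25A16 had 18.5 and 19.6 CPM, and SLC25A26, which imports S-adenosylmethionine, had 16.2 and 17.7 CPM. The members named here were thus between 15 and 50 CPM apart from SLC25A36.

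SLC25A51, which imports NAD, had 6.68 CPM in sample 2 against 7.61 CPM in sample 1. Its close copy SLC25A52 had 1 count in sample 2 and none in sample 1. Their coding sequences were 94.5% identical with a longest identical run of 169 bases, so the first 90 coding bases of SLC25A51 are set beside coding positions 31 to 120 of SLC25A52, with capitals at the bases that differ from SLC25A51.
SLC25A51: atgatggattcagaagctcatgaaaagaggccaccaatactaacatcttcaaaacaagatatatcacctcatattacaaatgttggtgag
SLC25A52: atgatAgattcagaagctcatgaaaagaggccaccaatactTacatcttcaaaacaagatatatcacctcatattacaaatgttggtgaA
Only 3 of these 90 bases differed. In SLC25A52 70.7% of the 50-base stretches were unique to it and in SLC25A51 84.4%, so reads from the shared stretches could not be placed by sequence alone. SLC25A32, the folate carrier, had 4 counts in sample 2 and none in sample 1. Of its exon bases, 69.7% lie in exons of AC012213.5 on the same strand, which had no count in either sample, and 33.3% of its 50-base stretches are its own. The sources used here do not give how reads that match both genes were treated, so its low count is uncertain.

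The iron and glutathione carriers had 1 high member. SLC25A39, a glutathione carrier (ENSG00000013306, chr17:44319625-44324870, - strand), had 266 CPM in sample 2 (260 to 273) and 283 CPM in sample 1 (273 to 294). Its paralog SLC25A40 had 11.4 and 10.8 CPM, and SLC25A39 was 33.7 and 37.8 times SLC25A40 per kilobase of all exons and 58.9 and 66.1 times over the principal transcripts. The mitoferrins, which bring iron into the matrix for haem and iron-sulphur clusters, were both present. SLC25A37 (mitoferrin-1, ENSG00000147454, chr8:23528805-23575463, + strand), best known from developing red cells, had 55.3 CPM (52.2 to 58.5) and 56.9 CPM (52.4 to 61.6), and SLC25A28 (mitoferrin-2) had 36.7 and 32.3 CPM. Per kilobase the order was the other way round, with SLC25A28 at 3.08 times SLC25A37 in sample 2 and 2.64 times in sample 1. Over the principal transcripts SLC25A28 was 2.21 and 1.89 times SLC25A37. Of 17 other genes of mitochondrial iron, haem and iron-sulphur metabolism, 16 were at or above 1 CPM. HSPA9, a matrix chaperone, led them with 433 and 491 CPM. TFRC, the transferrin receptor, followed with 183 and 207 CPM. FDX2 had no count in either sample. Overlaps of FDX2 with other genes were not examined, so the lack of counts does not show that it is not transcribed.

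Of the uncoupling proteins, UCP2 was high and the tissue-restricted UCP1 and UCP3 were low. UCP2 (ENSG00000175567, chr11:73974667-73983307, - strand) had 139 CPM in sample 2 (134 to 144) and 138 CPM in sample 1 (131 to 145). UCP3, known from skeletal muscle, had 21 and 13 counts, and UCP2 was 164 and 125 times UCP3 per kilobase. UCP1, which makes heat in brown fat, had 13 counts in sample 2 (0.595 CPM, 0.317 to 1.02) and 1 count in sample 1 (0.0964 CPM, 0.00244 to 0.537), and these intervals overlap. The adipocyte markers summed to 5.31 CPM in sample 2 against 4.72 CPM in sample 1, nearly all from PLIN1, with no count for FABP4, and the skeletal muscle markers to 3.57 and 1.64 CPM; their part in these levels was not tested. Among the relatives best known from brain and kidney, SLC25A27 (UCP4, ENSG00000153291, chr6:46652915-46678193, + strand) had 15.0 CPM (13.4 to 16.7) and 10.8 CPM (8.89 to 12.99), SLC25A14 (UCP5) had 12.2 and 11.6 CPM, and SLC25A30 had 9.52 and 8.48 CPM.

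Some members of the family sit in the outer membrane and are not classical carriers. MTCH1 (ENSG00000137409, chr6:36968141-36986298, - strand) had 222 CPM in sample 2 (216 to 228) and 224 CPM in sample 1 (215 to 233). MTCH2, an insertase for outer membrane proteins (ENSG00000109919, chr11:47617315-47642623, - strand), had 61.2 CPM (58.0 to 64.6) and 67.3 CPM (62.4 to 72.5), and MTCH1 was 3.36 and 3.08 times MTCH2 per kilobase. Over the principal transcripts MTCH1 was 4.67 and 4.29 times MTCH2. SLC25A46, which acts in mitochondrial membrane dynamics, had 56.1 and 57.6 CPM. The import machinery of the carriers was present too. Of 13 genes for carrier import and insertion, 12 were at or above 1 CPM. TOMM40, the channel of the outer membrane translocase, led them with 216 CPM in sample 2 against 259 CPM in sample 1. The receptor TOMM20 followed with 126 and 131 CPM. TOMM6 had no count in either sample. Its overlaps with other genes were not examined, so the lack of counts does not show that it is not transcribed.

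The 7 members placed here without a settled substrate were low apart from SLC25A35. SLC25A35 (ENSG00000125434, chr17:8287763-8295343, - strand) had 52.6 CPM in sample 2 (49.6 to 55.7) and 35.3 CPM in sample 1 (31.8 to 39.1), and SLC25A43 (ENSG00000077713, chrX:119399060-119454478, + strand) had 15.4 CPM (13.8 to 17.2) and 13.5 CPM (11.4 to 15.9). SLC25A45, SLC25A48 and SLC25A53 were between 6 and 14 CPM in both samples. SLC25A47, a liver carrier, had 6 and 4 counts and SLC25A34 had 4 and 3 counts, and the hepatocyte markers summed to 0.686 CPM in sample 2 against 0.771 CPM in sample 1.

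Ordered by CPM per kilobase, the family ran from SLC25A5, at 226 CPM per kilobase in sample 2 and 237 in sample 1, down to UCP3, at 0.261 and 0.340, among the 45 members at or above 1 CPM. SLC25A6 followed SLC25A5 with 112 and 115, then SLC25A1 with 97.8 and 99.1, SLC25A11 with 79.6 and 81.2, SLC25A39 with 75.6 and 80.3 and MTCH1 with 71.0 and 71.6. Of the 44 pairs of neighbours in this order, 25 were separated in the sense that both samples of one gene lay above both samples of the other, and 19 overlapped. This rule takes no account of counting error, so the order of a separated pair is not thereby settled. SLC25A11 and SLC25A39 overlapped, as did UCP2 and SLC25A3, so their order is not settled. The median over the 45 members was 8.43 CPM per kilobase, against 5.72 for protein-coding genes at or above 1 CPM, and 31 of the 45 lay above that. With the principal transcript as the length, 9 of the 10 highest members were shared, with SLC25A29 in place of MTCH2, but their order differed. SLC25A5 was again first, followed by SLC25A3, then SLC25A39 with 166 and 176 CPM per kilobase, SLC25A1 with 124 and 126 and SLC25A6 with 117 and 121, so the order below SLC25A5 is not settled.

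**Figure D3:**
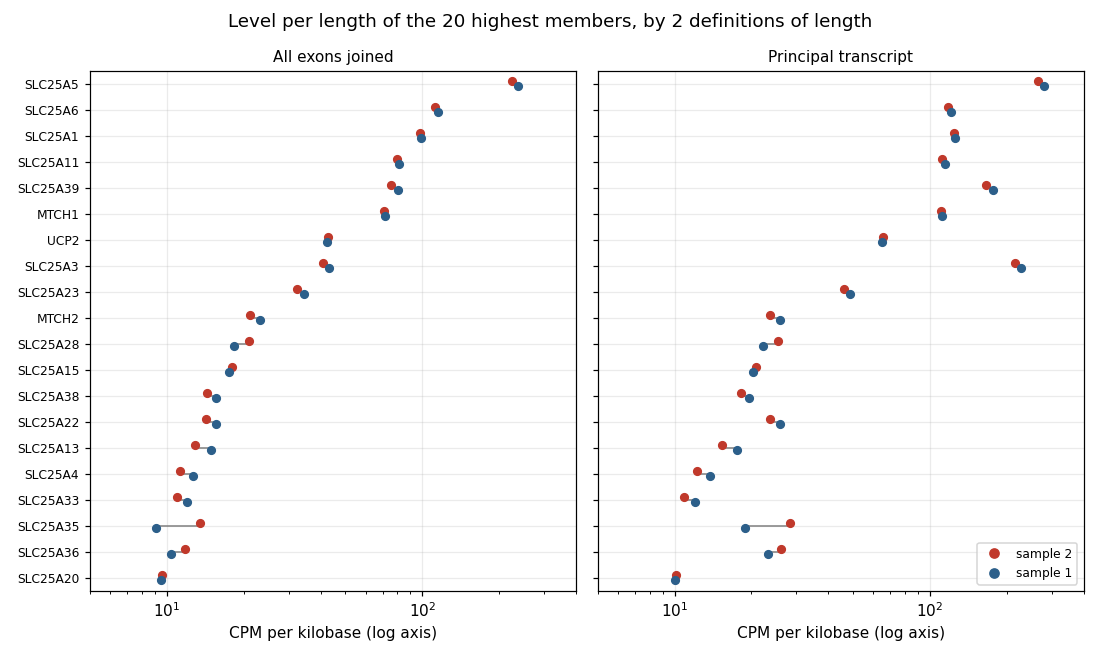
CPM per kilobase on log axes for the 20 members highest over all exons joined, with the length of all exons on the left and of the principal transcript on the right; red points are sample 2 and blue points sample 1. SLC25A5 is highest in both panels, and SLC25A3 stands at 40.8 and 43.0 on the left and at 217 and 228 on the right.

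The 2 libraries were then compared with each other, gene by gene. A 2-sided exact binomial test of each gene's counts against the library sizes, with Benjamini-Hochberg adjustment over 15530 genes at or above 1 CPM, called 5 of the 45 members tested at an adjusted p under 0.05. Across all tested genes it called 1393, or 8.97%, so the share of members called, 11.1%, was near that of all genes. All 5 were higher in sample 2, where 4.41% of all tested genes were called, and 0 were lower, where 4.56% were. No called member differed by 1.5-fold or more in CPM + 1, as 0.728% of all tested genes did. The test holds counting error only and compares these libraries, not conditions. Whether a gene is called also depends on its number of counts. Over all tested genes the mean chi-square per gene was 4.68, more than counting error alone gives. The adjusted p-values are therefore smaller than a test holding all variation would give. Over the 45 members the log2 ratio of (CPM + 1), sample 2 over sample 1, ran from -0.29 to 0.56 with a median of -0.04 and an SD of 0.18, against a median of 0.01 and an SD of 0.21 over all tested genes. Of the members, 17 were higher and 28 lower in sample 2, whether called or not. The same split over all tested genes is not given here, so these numbers alone do not set the family apart.

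SLC25A35 differed most, with a log2 ratio of 0.56 and an adjusted p of 1.76e-09 in the exact binomial test. SLC25A27 followed with 0.44 (exact test, adjusted p = 0.0334), a call that was lost when all genes with a count were tested (exact test, adjusted p = 0.0869), where 4 of 53 members and 2.35% of all genes were called. Next came SLC25A42 with 0.40 (exact test, adjusted p = 0.00349). SLC25A29 had 0.30 (exact test, adjusted p = 0.000266) and SLC25A36 had 0.18 (exact test, adjusted p = 0.0110). The calls were a carrier of basic amino acids, a coenzyme A carrier, a pyrimidine nucleotide carrier, UCP4 and a member without a settled substrate. None came from the ADP/ATP, phosphate, carboxylate, iron and glutathione or outer membrane groups. Each of those groups had only 3 to 5 tested members, and 8.97% of all tested genes were called. With so few members, the split is not a result about the groups. That split depended on the scaling: with libraries scaled to their column totals or with TMM, 9 members were called, 5 higher in sample 2 and 4 lower (SLC25A3, SLC25A5, SLC25A39 and SLC25A13). That is 20% of the members tested, against 9.5% of all tested genes with either scaling. These shares were not matched for read count, and the test calls smaller differences at higher counts. SLC25A3, SLC25A5 and SLC25A39 have the most reads of the family. Joined exons were longer among the genes called higher in sample 2, with a median of 6194 bases over all tested genes, against 4098 for those called lower and 4761 for those not called; among the members the medians were 4519 for the 5 called and 3707 for the 40 not called, and the part of length in these calls was not tested. In SLC25A35, 33.2% of the exon bases lie opposite exons of RANGRF, which had 7 counts in sample 2 and 3 in sample 1. The sources used here do not give the strand setting of the counting, so reads from a gene and its antisense partner cannot be told apart for the 19 members with such an overlap.

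**Figure D4:**
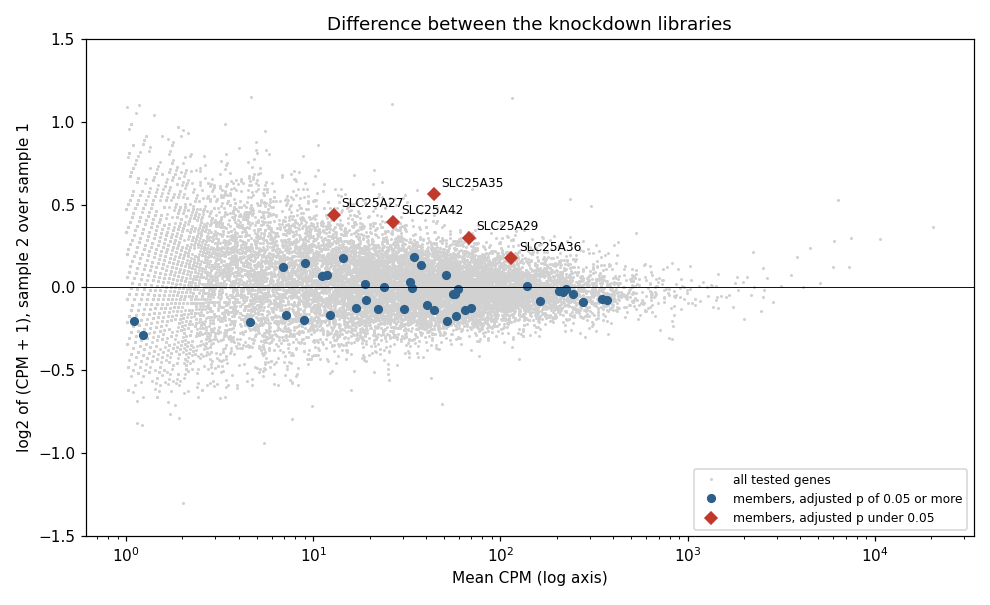
Log2 ratio of (CPM + 1), sample 2 over sample 1, against mean CPM on a log axis, with grey dots for all tested genes (1 gene lies outside the axis), blue circles for members at an adjusted p of 0.05 or more and red diamonds for the 5 members under it. All 5 named members lie above the line at 0, between 0.18 and 0.56, and the other members lie within the grey cloud.

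Genes around the carriers were compared in the same way, over lists of pathway partners; of all tested genes, 8.97% were called, 4.41% higher and 4.56% lower in sample 2. Of the 12 tested genes of carrier import, 1 was called, TOMM40, lower in sample 2 with a log2 ratio of -0.26 (exact binomial test, adjusted p = 5.39e-11). Of 20 other mitochondrial transporters at or above 1 CPM, out of 21, none was called higher and 2 lower, VDAC2 with 143 CPM in sample 2 against 161 CPM in sample 1 and the pyruvate carrier subunit MPC1 with 27.0 and 33.3 CPM. That list was led by VDAC1, the outer membrane channel, at 400 and 412 CPM and by LETM1, an inner membrane ion exchanger, at 166 and 168 CPM. Of the shuttle and citrate enzymes, 1 was higher, IDH2 with 129 and 105 CPM, and 2 were lower, ACLY and MDH1, MDH1 having 167 and 188 CPM. In the iron and haem list 3 of 16 were lower, HSPA9, TFRC and GLRX5, GLRX5 having 124 and 139 CPM, and none was higher. Of 21 one-carbon, urea cycle and cofactor enzymes at or above 1 CPM, out of 22, ALDH18A1 was lower, with 127 and 142 CPM, and the list was led by SHMT2, the matrix serine hydroxymethyltransferase, at 195 and 202 CPM and by COASY, which makes coenzyme A, at 178 and 176 CPM. The median log2 ratios of the 5 lists lay between -0.06 and -0.01.

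Promoters of the members were read from RefSeq on GRCh38.p14, as 250 bases before to 50 bases after the start, and 45 of the 53 members matched. Most were rich in CpG, the dinucleotide that marks CpG islands when its frequency is not far below that of its bases. A ratio of observed to expected CpG of at least 0.6 was found in 32 of 34 members at or above 10 CPM (94.1%), in 4 of 5 members from 1 to 10 CPM and in 3 of 6 members below 1 CPM. The same was true of 88.4% of 8235 protein-coding genes at or above 10 CPM, of 27.3% of 4593 protein-coding genes below 1 CPM and of 49.0% of all 27305 promoters, so the share among the expressed members was close to that of expressed genes in general. The exceptions at or above 10 CPM were SLC25A25 and SLC25A45, with ratios of 0.383 and 0.218, and the CpG-rich promoters below 1 CPM were those of UCP1, SLC25A31 and SLC25A52.

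Members with high and low levels are shown side by side, each from 250 bases before to 50 bases after its start on its own strand, with every CG in capitals. They were picked by hand and do not stand for all high or low members. UCP3 has the lowest CpG ratio of the 45 members that matched, 0.0972. SLC25A1 (chr22:19178687-19178986, - strand) has 45 CG and UCP2 (chr11:73983153-73983452, - strand) has 24, while UCP3 (chr11:74009036-74009335, - strand) has 2 and SLC25A47 (chr14:100323089-100323388, + strand) has 7.
SLC25A1: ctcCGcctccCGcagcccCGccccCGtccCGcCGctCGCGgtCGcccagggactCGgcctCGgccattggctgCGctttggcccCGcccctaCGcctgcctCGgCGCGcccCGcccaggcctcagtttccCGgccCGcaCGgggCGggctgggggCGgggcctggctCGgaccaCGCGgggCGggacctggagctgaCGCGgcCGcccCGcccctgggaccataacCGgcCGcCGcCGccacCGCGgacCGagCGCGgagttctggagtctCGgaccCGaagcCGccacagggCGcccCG
UCP2: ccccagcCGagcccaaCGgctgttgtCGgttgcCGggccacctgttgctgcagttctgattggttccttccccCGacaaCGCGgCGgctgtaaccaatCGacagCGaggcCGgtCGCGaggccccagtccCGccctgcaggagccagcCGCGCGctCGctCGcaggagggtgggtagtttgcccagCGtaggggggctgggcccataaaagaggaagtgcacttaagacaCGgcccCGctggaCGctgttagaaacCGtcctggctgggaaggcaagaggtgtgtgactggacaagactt
UCP3: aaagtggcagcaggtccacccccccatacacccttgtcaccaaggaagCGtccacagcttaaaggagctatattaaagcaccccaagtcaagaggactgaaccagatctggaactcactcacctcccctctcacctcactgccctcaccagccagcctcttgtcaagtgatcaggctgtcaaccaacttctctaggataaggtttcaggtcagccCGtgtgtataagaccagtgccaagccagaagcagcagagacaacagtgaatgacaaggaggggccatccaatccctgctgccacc
SLC25A47: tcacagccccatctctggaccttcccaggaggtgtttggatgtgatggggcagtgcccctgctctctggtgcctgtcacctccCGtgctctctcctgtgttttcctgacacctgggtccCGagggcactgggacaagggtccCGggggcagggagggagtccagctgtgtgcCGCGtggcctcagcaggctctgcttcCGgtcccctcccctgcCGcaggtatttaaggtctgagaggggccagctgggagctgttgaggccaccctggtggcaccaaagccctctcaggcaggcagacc
UCP2 and UCP3 are neighbours on chromosome 11 and differed both in CpG and in level, whereas UCP1 had a CpG ratio of 0.878 with 13 and 1 counts.

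**Figure D5:**
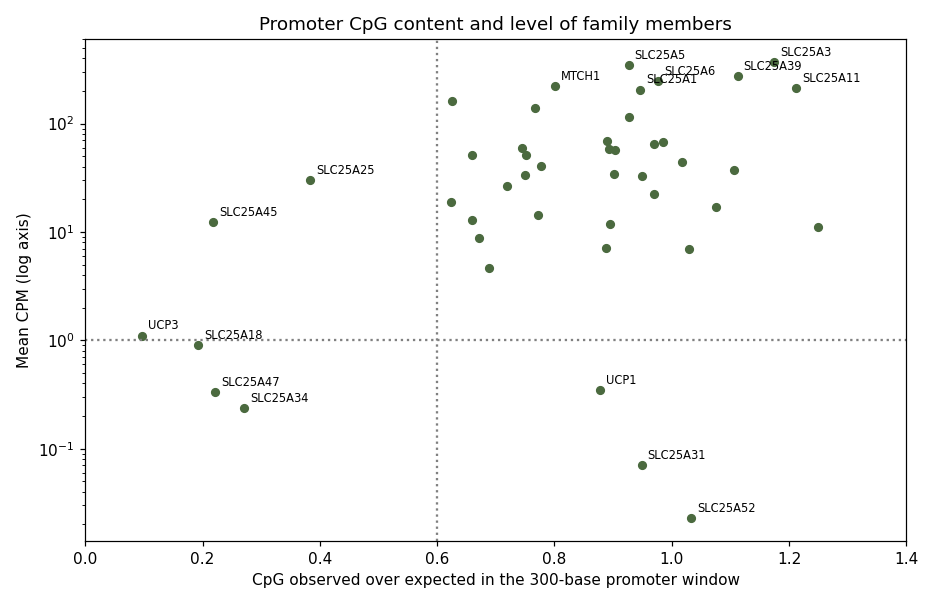
Ratio of observed to expected CpG in the 300-base promoter window against mean CPM over both samples on a log axis, with 1 point for each of the 45 members that matched; dotted lines mark a ratio of 0.6 and 1 CPM. The members above 10 CPM lie to the right of 0.6 apart from SLC25A25 and SLC25A45, and below 1 CPM 3 members lie on each side.

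Short motifs of 2 kinds were searched on both strands of the 45 windows. CCGGAAG, an ETS-type sequence, was in 9 members (20%), against 20.3% of protein-coding genes at or above 10 CPM and 10.7% of all promoters. TATAAA was in 3 members (6.67%), against 4.54% and 12.0%. The 45 windows include members below 10 CPM. Among the 34 members at or above 10 CPM, the shares were 23.5% for CCGGAAG and 5.88% for TATAAA. Both sets of shares were within a few percentage points of those of protein-coding genes at or above 10 CPM. A match is a description of the letters only.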

How the data were processed

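Directional libraries of total RNA from HEK293T cells with FKBP5 knockdown were analysed, in 1 group of 2 samples by their genotype label. Counts were deposited as raw whole numbers, 1 for each Ensembl gene. The deposited CPM are counts over a library size that the authors set higher than the column total, by 2.68% in sample 2 and 3.78% in sample 1; all values came out as whole reads within 1e-06. Per the submitters' processing notes, STAR 2.7.7a, edgeR and the build GRCh38 were used; the sources used here do not give the counter, its strand setting or its annotation. Strand and the handling of shared reads therefore limit the values of overlapping genes.

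The members, their substrate groups and the comparison lists were chosen with earlier results of these data known. Values with intervals were given for the 2 highest members of each substrate group by mean CPM, for every member called between the libraries and for members at or above 1 CPM with under 80% unique 50-base stretches; of each comparison list the 2 highest genes were named. Other genes called within a list, and low members beside markers of their tissue, were named after their values were seen. The values of 1 member are not reported here. GENCODE 29 gave coordinates, exons and transcripts for 96.4% of the gene IDs. Levels of different genes were compared as CPM per kilobase of joined exons. Intervals are 95% exact Poisson for a CPM and Wilson for a share; the floor is 3 counts. The libraries were compared with a 2-sided exact binomial test with Benjamini-Hochberg adjustment and with log2 ratios of CPM + 1. The test was tried on simulated counts that held counting error only. That trial therefore cannot show how the test behaves with the wider variation of these libraries. Only genes whose mean reached 1 CPM were tested. Other scalings, filters, pseudocounts and lengths were tried. The software was Python 3.11.15 (scipy 1.17.1, statsmodels 0.14.6, numpy 2.4.6, pandas 2.3.3 and matplotlib 3.10.9) and R 4.3.3 with edgeR 4.0.16 for TMM and filterByExpr.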

Additional observations from a re-analysis of the deposited data

How the results depend on the processing

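No paired analysis was possible because both samples belong to 1 group. Leaving out either sample cannot give a binomial test or a ratio between the libraries, so no such value was run. The count of members called between the libraries was 5 of 45 (11.1%, against 8.97% of all tested genes), and 9 with libraries scaled to column totals and 9 with TMM (20%, against 9.5%); the 4 added, all lower in sample 2, were SLC25A3, SLC25A39, SLC25A5 and SLC25A13, with adjusted p between 0.0187 and 0.0416 under column totals (exact binomial test), against 0.0651 to 0.104 with the deposited scaling. The shares of members and of all genes were not matched for read count. With all counted genes tested, 4 members were called, and SLC25A27 was the one lost (exact test, adjusted p = 0.0869). Per kilobase of exon, the 3 highest members were SLC25A5, SLC25A6 and SLC25A1 and held 41.8% of the family, and the mean shares of the groups were 33.6% for the ADP/ATP carriers, 17.7% for the carboxylate carriers, 10.04% for iron and glutathione, 9.45% for the outer membrane members, 8.46% for phosphate, 8.13% for amino acids, 5.76% for cofactors, nucleotides and carnitine, 4.94% for uncoupling proteins and 1.87% for members without a settled substrate. Per kilobase of principal transcript, chosen after seeing the data, the shares were 24.2% for ADP/ATP, 17.4% for phosphate, 15.1% for carboxylates, 12.5% for iron and glutathione, 9.56% for the outer membrane, 8.33% for amino acids, 5.59% for cofactors, nucleotides and carnitine and 4.79% for uncoupling proteins; the phosphate group is thus above the carboxylate group on this length and below it on joined exons. A further 38 values, the 4 calls over all counted genes among them, stayed within the limits set for a change, including 43 to 46 members detected at minimums of 2 and 0.5 CPM and the same 10 highest members in either sample alone. Sample 1 is the shallower library, so members below 1 CPM are known least well in it. The dispersion between the samples, estimated with edgeR over genes kept by filterByExpr, gave a biological coefficient of variation of 5.62%, which the binomial test does not hold.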

Other observations

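The annotation holds 49 pseudogenes of the family, which had 91 counts in sample 2 and 39 in sample 1, or 0.125% and 0.111% of the members' counts. Of these, 21 had no count in either sample. SLC25A5P5 held 25 of the counts in sample 2 and 21 in sample 1, or 1.14 and 2.02 CPM. Of the 5 antisense RNAs named after members they overlap, SLC25A25-AS1 had 18.2 CPM in sample 2 against 20.8 CPM in sample 1, SLC25A5-AS1 had 4.21 and 3.95 CPM, and SLC25A21-AS1 had 1.01 and 1.93 CPM, while SLC25A30-AS1 had 0 and 2 counts and SLC25A34-AS1 had 2 and 0 counts. DCAF13, whose first bases lie opposite SLC25A32, had 34.9 CPM in sample 2 against 40.5 CPM in sample 1, while SLC25A32 had 4 counts and none.

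Coding sequences were compared between further pairs of paralogs. SLC25A12 was 71.2% identical to SLC25A13, UCP3 was 72.3% and UCP1 60.6% identical to UCP2, SLC25A28 was 64.0% identical to SLC25A37, and SLC25A39 was 56.6% identical to SLC25A40. MTCH2 and MTCH1 shared 46.8% of coding bases.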
